A study of Mus musculus with 4 samples.

Results

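Ketone body genes here are Oxct1, Bdh1, Bdh2, Acat1 and Aacs, taken by symbol from a list of enzymes that make, interconvert or use acetoacetate and β-hydroxybutyrate. All 5 were found among the 53465 genes of the deposited files, and all 5 passed the filter on low counts along with 18157 genes in all. RNA was sequenced from whole ventricles of mice at postnatal day 1. The 2 control libraries came from mice with both Ctnnb1 alleles floxed (genotype Ctnnb1floxP/floxP) and no Cre, and the 2 libraries titled CKO/CKO, called CKO-labelled here, from mice with the same floxed alleles and the alphaMHC-Cre transgene, which drives Cre recombinase in cardiomyocytes. The groups therefore differ in the transgene as well as in the deletion of Ctnnb1, which encodes β-catenin. The labels do not state whether the samples were separate animals, so p-values measure only the spread between these libraries, which in the controls may be technical.

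Ketone bodies are made from acetyl-CoA, mainly in the liver, and burned in heart, brain and muscle. In mitochondria Acat1 joins acetyl-CoA units into acetoacetyl-CoA, from which acetoacetate is made, and Bdh1 interconverts acetoacetate and β-hydroxybutyrate. To burn them, Oxct1 (SCOT) moves coenzyme A from succinyl-CoA onto acetoacetate and Acat1 splits the product. The suckling period is a time of high ketone supply, since milk is rich in fat.

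The libraries held 34027143 to 45651797 reads in genes. Ctnnb1 itself had 409 and 434 counts per 1000000 reads in genes (CPM) in controls 1 and 2, against 527 and 460 CPM in CKO-labelled 1 and 2. That count covers every exon, deleted or not, and the RNA of other cells, so it does not check the labels. The summed CPM of 10 cardiomyocyte markers was 60672 and 52949 in the controls and 66686 and 74128 in the CKO-labelled libraries. Myh6 was at 18329 CPM or above in every library. Of the 10, 5 lay higher in both CKO-labelled libraries and 0 lower in both, against 26.5% and 29.7% of all genes. The other 5 overlapped, among them Myh7 at 8657 and 4969 CPM in the controls against 4979 and 1128 CPM. Smooth muscle and pericyte markers summed to 551 and 747 CPM in the controls and 1704 and 1461 CPM in the CKO-labelled libraries. That rise rested on Acta2, at 173 and 332.5 CPM in the controls against 1375 and 1137 CPM. Of the 6, 3 lay lower and 1, Acta2, higher in both CKO-labelled libraries, against the same shares of all genes. Erythroid markers summed to 1015 and 1054.5 against 731.0 and 629.9 CPM. Of these 6, 4 lay lower and 1 higher in both CKO-labelled libraries, against the same shares. Hepatocyte markers summed to 0.609 to 1.70 CPM. Of 6 markers of brown fat, another ketone user, Ucp1, Adipoq, Plin1 and Cfd were at 0.0818 CPM or less, while Cidea and Fabp4 were at 35.5 to 42.8 and 972 to 1555 CPM and set the sum of 1011 to 1598 CPM. All 8 T cell and thymocyte markers were highest in control 1, with a sum of 246 CPM against 0.913 to 4.25 CPM elsewhere. CKO-labelled 2 had Xist at 602 CPM and no Kdm5d read, while the other 3 libraries had at most 0.327 CPM of Xist and at least 37.4 CPM of Kdm5d, so the CKO-labelled libraries differed in sex-linked genes. Mitochondrially encoded genes took 5.25% and 7.65% of gene reads in the controls and 10.2% and 14.4% in the CKO-labelled libraries. Reads placed at more than 1 site made up 19.4% and 21.0% of counted reads in the controls and 23.9% and 29.7% in the CKO-labelled libraries, and the part of any of these differences in the results was not tested. In bulk RNA, fewer cells of a type and less RNA per cell cannot be told apart.

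Acat1 and Oxct1 supplied nearly all reads of the set, and both were higher in each CKO-labelled library than in each control. Neither passed edgeR's quasi-likelihood test over all genes. Bdh1, Bdh2 and Aacs were low, and their groups overlapped. By edgeR 0 of the 5 passed an adjusted p under 0.05, where 0.011% of all genes tested did in either direction, and 2 of the 5 (Oxct1 and Acat1) had an unadjusted p under 0.05, where 23% of all genes did. DESeq2 called the same 2 higher, where it called 6.19% of its 15837 genes higher. The median log2 fold change of the 5 was 0.65, against -0.02 over all genes tested.

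Oxct1 (ENSMUSG00000022186.14), the enzyme that commits acetoacetate to oxidation, spans 4026383 to 4155344 on the forward strand of chromosome 15 in GRCm38. It was at 132 and 115 CPM in controls 1 and 2, against 306 and 292 CPM in CKO-labelled 1 and 2, scaled between libraries by TMM. The groups were well apart, and each pair of replicates lay close together. The means were 123 ± 12.6 and 299 ± 9.90 CPM (SD, n = 2 each). The log2 fold change was 1.28 ± 0.18 (SE), a 2.42-fold difference with a 95% interval of 1.78 to 3.30 (adjusted p = 0.0925, edgeR). Its p ranked 65 among 18157, and 616 genes shared the adjusted value. DESeq2 gave 1.30 with an adjusted p of 5.79e-08, and limma-voom 1.28 with an adjusted p of 0.0971. In the authors' deposited table its log2 fold change was 1.298 (adjusted p = 6.66e-08).

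Acat1 (ENSMUSG00000032047.5), the mitochondrial acetoacetyl-CoA thiolase, which also ends the breakdown of isoleucine, spans 53580522 to 53610382 on the reverse strand of chromosome 9. It was at 463 and 415 CPM in the controls, against 633 and 744 CPM in the CKO-labelled libraries. The groups did not overlap, and the CKO-labelled replicates lay further apart than those of Oxct1. The log2 fold change was 0.65 ± 0.21 (SE), a 1.57-fold difference with a 95% interval of 1.10 to 2.24 (adjusted p = 0.153, edgeR). DESeq2 gave an adjusted p of 0.0200 and the authors' deposited table one of 0.0211. The CKO-labelled values did not overlap the controls and were higher for 2 of the 5 genes, as they were for 26.5% of all genes tested.

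Bdh1 (ENSMUSG00000046598.14), the mitochondrial β-hydroxybutyrate dehydrogenase, spans 31422280 to 31458901 on the forward strand of chromosome 16. It had 166 and 34 reads in controls 1 and 2 and 135 and 143 in CKO-labelled 1 and 2, or 3.56, 0.695, 3.05 and 4.84 CPM. Control 2 stood alone at the low end, and the other 3 libraries overlapped across groups. The controls differed by more than counting error, with exact Poisson 95% intervals of 3.04 to 4.14 and 0.481 to 0.971 CPM. The log2 fold change of 0.89 ± 0.74 (SE, edgeR adjusted p = 0.511) rested on that library. Without control 2 it was 0.15, without control 1 it was 2.49, and without CKO-labelled 2 it was 0.53.

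Bdh2 (ENSMUSG00000028167.15), a cytosolic dehydrogenase of the same broad family, spans 135281221 to 135304426 on the forward strand of chromosome 3. It had 58 and 127 reads in the controls and 58 and 20 in the CKO-labelled libraries, or 1.24, 2.60, 1.31 and 0.676 CPM. Control 1 and CKO-labelled 1 had nearly equal values, while control 2 lay above them and CKO-labelled 2 below. The log2 fold change was -0.94 ± 0.54 (SE, edgeR adjusted p = 0.345). Leaving out control 1 or 2 gave -1.37 or -0.30, and leaving out CKO-labelled 1 or 2 gave -1.45 or -0.55, so its size depended on the library left out. Counting intervals and Poisson limits cover counting error only.

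Aacs (ENSMUSG00000029482.4), the acetoacetyl-CoA synthetase that sends acetoacetate into lipid synthesis in the cytosol, spans 125475814 to 125517410 on the forward strand of chromosome 5. It was at 8.73 and 7.75 CPM in the controls, against 7.98 and 8.86 CPM in the CKO-labelled libraries. The values interleaved, and the means were 8.24 ± 0.694 and 8.42 ± 0.620 CPM (SD, n = 2 each). The log2 fold change was 0.03 ± 0.25 (SE, edgeR adjusted p = 0.951), with a 95% interval of 0.672-fold to 1.55-fold. With trends of GC content and gene length taken out it was 0.38 (adjusted p = 0.347, edgeR), and with library totals alone it was -0.21, where the median of all genes moved from -0.02 to -0.26.

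**Figure D1:**
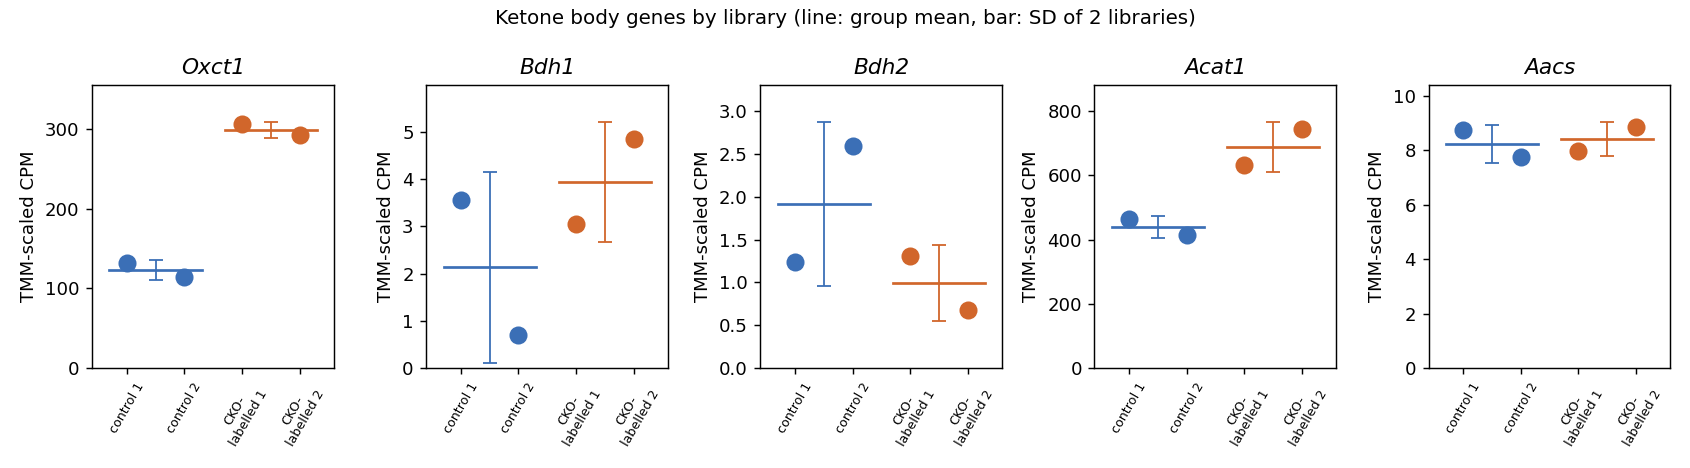
TMM-scaled CPM of the 5 ketone body genes in each library (points), with group means (lines) and the SD of 2 libraries (bars); each panel has its own axis from 0. Oxct1 lies at 115 to 132 CPM in the controls and 292 to 306 CPM in the CKO-labelled libraries, while the groups of Bdh1, Bdh2 and Aacs overlap.

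Per kilobase of exon, the scale on which different genes can be compared, Acat1 had the highest level of the 5. Its mean level was 117 ± 8.91 CPM per kb in the controls and 183 ± 20.8 in the CKO-labelled libraries (SD, n = 2 each), above 98.4% and 98.7% of all genes tested. Oxct1 was next, at 33.3 ± 3.39 and 80.7 ± 2.67 CPM per kb, above 93.6% and 97.0% of genes. Aacs followed at 2.14 ± 0.180 and 2.19 ± 0.161 CPM per kb. Bdh1, at 0.547 ± 0.521 and 1.01 ± 0.326 CPM per kb, and Bdh2, at 0.452 ± 0.225 and 0.233 ± 0.105 CPM per kb, came last. In the controls the order of Bdh1 and Bdh2 was within the spread of the replicates, while the other neighbours in this order were further apart than their SDs. Bdh1 thus lay above 22.7% and 31.8% of genes tested, far below Oxct1 and Acat1.

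Read ratios within a library do not depend on how libraries are scaled. Oxct1 had 0.286 and 0.276 reads for each Acat1 read in the controls and 0.483 and 0.392 in the CKO-labelled libraries, so Oxct1 was higher relative to Acat1 as well. For each Aacs read there were 15.2 and 14.8 Oxct1 reads in the controls and 38.3 and 32.9 in the CKO-labelled libraries. Acat1 reads per Aacs read were 53.0 and 53.6 against 79.3 and 83.9. Of the 10 ratios between the 5 genes, 5 had groups that did not overlap, each with an exact two-sided permutation p of 0.333 (0.666 after Benjamini-Hochberg adjustment), the smallest that 2 against 2 samples can give. The ratio of Oxct1 to Bdh1 overlapped, at 37.2 and 165 in the controls and 100 and 60.3 in the CKO-labelled libraries. The genes were also set against the summed 10 cardiomyocyte markers, of which 5 overlapped between the groups. Oxct1 had 2.180 and 2.163 reads per 1000 marker reads in the controls and 4.59 and 3.94 in the CKO-labelled libraries. On the same scale Acat1 had 7.63 and 7.84 against 9.50 and 10.03, while Aacs had 0.144 and 0.146 against 0.120 and 0.120.

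**Figure D2:**
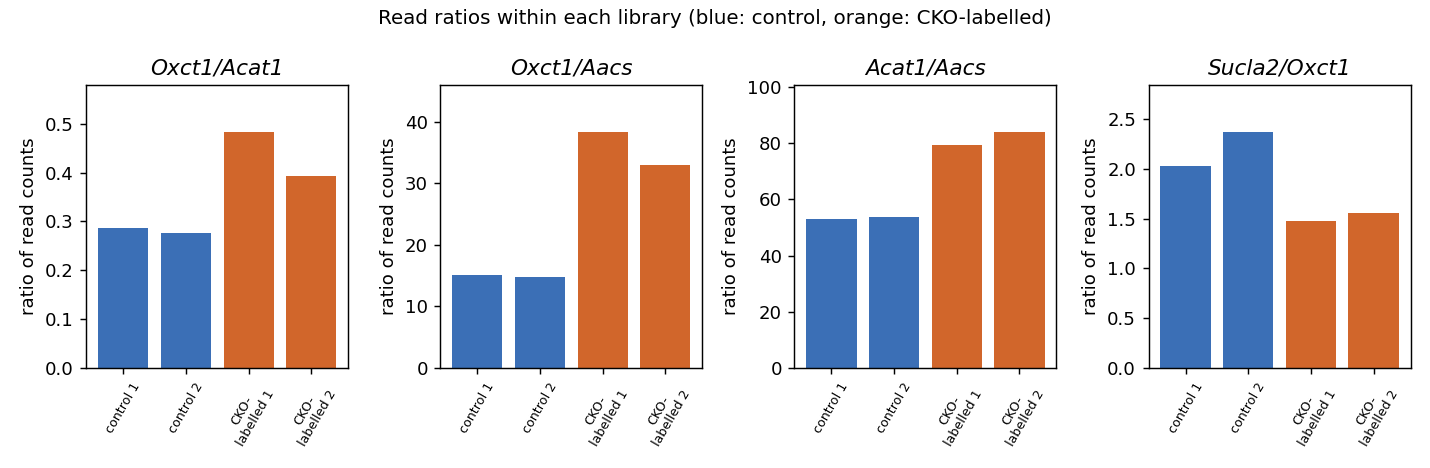
Ratios of read counts within each library for Oxct1 to Acat1, Oxct1 to Aacs, Acat1 to Aacs and Sucla2 (a subunit of succinyl-CoA ligase) to Oxct1, with controls in blue and CKO-labelled libraries in orange. The first 3 are higher in both CKO-labelled libraries, and Sucla2 to Oxct1 is 2.03 and 2.37 in the controls and 1.48 and 1.56 in the CKO-labelled libraries.

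The wider pathway was followed in 17 other genes of ketone metabolism, transport, coenzyme A supply and signalling. Of these 11 passed the filter, 0 passed edgeR's test over all genes, and an unadjusted p under 0.05 was reached by 4 higher and 0 lower, against 11.8% and 11.2% of all genes. DESeq2 called 3 higher (Slc16a1, Sucla2 and Suclg2) and 0 lower, where it called 6.19% of its genes higher and 4.91% lower. Both CKO-labelled libraries lay above both controls for 7 of the 11 and below for 1, against 26.5% and 29.7% of all genes. The median log2 fold change of the 11 was 0.54.

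Entry of ketone bodies runs through monocarboxylate transporters. Slc16a1 (MCT1), which carries lactate as well as ketone bodies, was at 107 and 131 CPM in the controls, against 257 and 261 CPM in the CKO-labelled libraries. The groups did not overlap, and the log2 fold change was 1.12 ± 0.19 (SE; edgeR adjusted p = 0.0925, DESeq2 adjusted p = 1.50e-05). Slc16a6, a transporter tied to ketone export from liver, was at 9.01 and 7.56 against 14.1 and 12.3 CPM (log2 fold change 0.68 ± 0.24; adjusted p = 0.173, edgeR). Bsg, the chaperone of MCT1, was at 671 and 658 CPM in the controls, against 728 and 1217 CPM in the CKO-labelled libraries, and its higher mean rested mostly on the second of these. Slc16a7 overlapped between groups, from 6.63 to 10.2 CPM.

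Oxct1 draws its coenzyme A from succinyl-CoA, which the succinyl-CoA ligase also uses. Sucla2, the ATP-forming β subunit, was at 268 and 271 CPM in the controls, against 452 and 454 CPM in the CKO-labelled libraries. Its log2 fold change was 0.75 ± 0.18 (SE; edgeR adjusted p = 0.108, DESeq2 adjusted p = 0.00139). Suclg2, the GTP-forming β subunit, was at 116 and 106 against 163 and 159 CPM (log2 fold change 0.54 ± 0.16; edgeR adjusted p = 0.141, DESeq2 adjusted p = 0.0440). Suclg1, the shared α subunit, was at 355 and 321 against 422 and 512 CPM (log2 fold change 0.47 ± 0.21; adjusted p = 0.242, edgeR). All 3 subunits were thus higher in each CKO-labelled library, by less than Oxct1, and the difference between them and Oxct1 was not tested across all genes. Sucla2 reads per Oxct1 read were 2.03 and 2.37 in the controls and 1.48 and 1.56 in the CKO-labelled libraries. The exact two-sided permutation p of this ratio was 0.333. Slc16a1 reads per Oxct1 read overlapped, at 0.810 and 1.14 in the controls and 0.840 and 0.894 in the CKO-labelled libraries. Both ratios were chosen after their values were seen.

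Of the remaining genes, Hmgcll1 was higher and Sirt3 lower in CPM in both CKO-labelled libraries, by differences that did not pass the test. Hmgcll1 had only 13 and 11 reads in the controls and 20 and 13 in the CKO-labelled libraries. Its control 1 and CKO-labelled 2 thus had equal reads and differed only after scaling. Acat2, the cytosolic thiolase, was at 5.32 and 5.13 against 9.27 and 3.99 CPM, and Hmgcll1, a lyase outside mitochondria, at 0.279 and 0.225 against 0.451 and 0.440 CPM (log2 fold change 0.82 ± 0.44, SE; adjusted p = 0.318, edgeR). The regulators Ppara and Sirt3 had log2 fold changes of -0.31 ± 0.38 and -0.13 ± 0.16 (SE; adjusted p = 0.665 and 0.664, edgeR). Acat3, the β-hydroxybutyrate receptor Hcar2 and the hormone Fgf21 were under the filter, and Fgf21 reached 0.686 CPM in control 1 alone. Oxct2a, Oxct2b and Ffar3 had 0 reads in every library, which allows up to 0.0657 to 0.0882 CPM before TMM scaling.

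**Figure D3:**
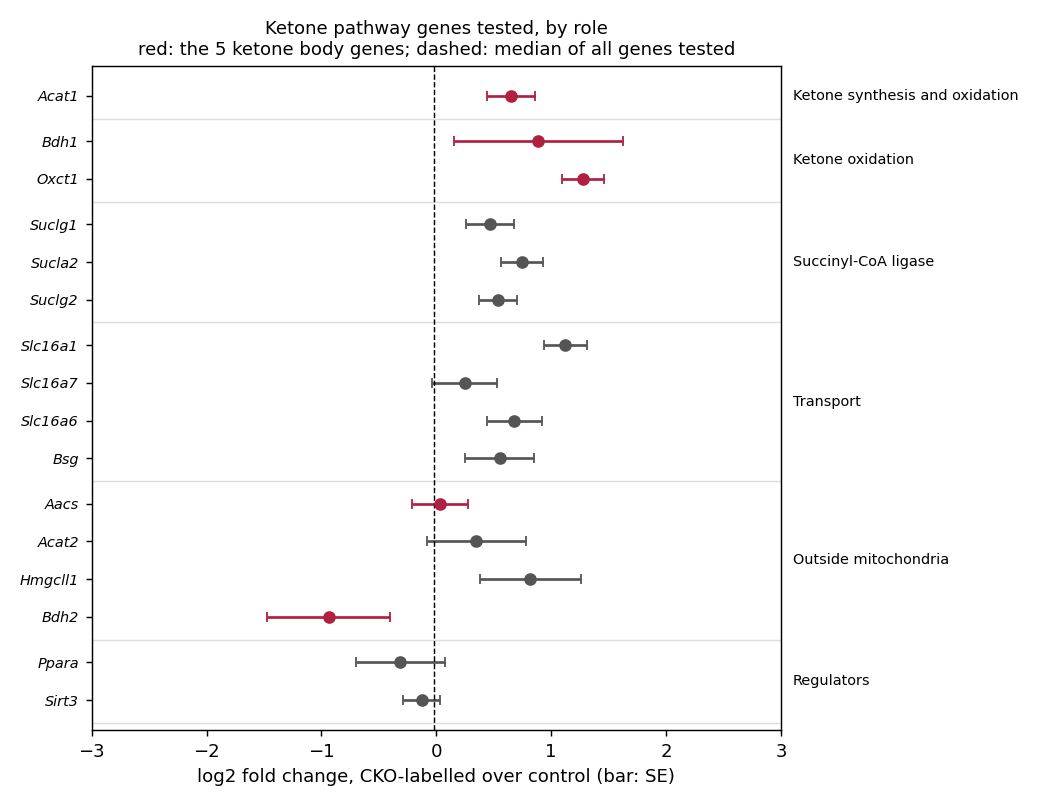
Log2 fold changes of the 16 tested ketone pathway genes by role (points), with their SE (bars); red marks the 5 ketone body genes and the dashed line the median of all genes tested. Bdh2 at -0.94 and Oxct1 at 1.28 form the extremes, with Aacs at 0.03.

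Related pathways were taken as lists, which were chosen with earlier results of these data known. The tricarboxylic acid cycle, which burns the acetyl-CoA from ketone bodies, had 16 tested genes with a median log2 fold change of 0.56. Of these, 15 lay higher in both CKO-labelled libraries and 0 lower in both, where 26.5% and 29.7% of all genes did. The smallest p of the cycle was that of Dld, a subunit shared by several dehydrogenase complexes, at 0.97 ± 0.18 (SE; edgeR adjusted p = 0.0925). Fatty acid β-oxidation had a median of 0.21 over 19 genes (11 higher and 2 lower in both, against the same shares), with Cpt1b, the carnitine palmitoyltransferase of muscle, at -1.48 ± 0.24 (SE; edgeR adjusted p = 0.0925). Breakdown of branched-chain amino acids, which shares Acat1, had a median of 0.17 over 18 genes (7 higher and 3 lower), and Dld, which it also holds, had its smallest p. Sterol and fatty acid synthesis, which Aacs feeds, had a median of 0.34 over 21 genes (12 higher and 2 lower). Cyp51, a sterol demethylase, was at 1.42 ± 0.28 in that list (SE; edgeR adjusted p = 0.0925), while Aacs was at 0.03. By edgeR 0 genes of these lists passed over all genes, and none of the differences between the lists was tested.

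The protein-coding genes with profiles most like each of the 5 were found among 7446 with a mean of at least 20 CPM, by the root mean square difference of centred log2(CPM + 1) over the 4 libraries. For Oxct1 they were Hsd17b12 (difference 0.0839), Noct (0.0841) and Map1a (0.105). Hsd17b12 was at 18.6 and 18.0 CPM in the controls, against 42.5 and 45.2 CPM in the CKO-labelled libraries. For Acat1 they were Mrpl16, Aifm1 and Coq7, at differences of 0.0170 to 0.0189. Bdh1 was closest to Proser2 (0.128), which shared the low value in control 2, at 15.7 CPM against 35.9 to 66.6 CPM elsewhere. Next for Bdh1 came Cdkn1a (0.190) and Lrrc10 (0.237). Bdh2 was closest to Gucy1a1, Tppp and Arrdc4 (0.0198 to 0.0689) and Aacs to Nucb1, Rnh1 and Ercc3 (0.00788 to 0.0144). Adding 1 CPM shrinks the profiles of Bdh1 and Bdh2, at 0.676 to 4.84 CPM, more than those of genes averaging at least 20 CPM. Small differences for Bdh1 and Bdh2 therefore do not mean equal fold changes. Bdh2 had a log2 fold change of -0.94, against -0.55, -0.67 and -0.63 for Gucy1a1, Tppp and Arrdc4.

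Promoter windows of 250 bases before the start were read from RefSeq (GRCm38.p6) for Oxct1, Bdh1, Bdh2 and Aacs, with 2 starts for Bdh1. The windows of the member that differed most, the member that differed least and the member holding the only motif match are shown 5′ to 3′ on the sense strand, with the match in capitals. They lie at chr15:4026178-4026427, chr5:125475623-125475872 and chr3:135280971-135281220, all on the forward strand. The start is that of RefSeq, while the gene spans given above are from GENCODE. The Oxct1 and Aacs windows thus end inside those spans, which begin at 4026383 and 125475814, and the Bdh2 window ends just before its span.
Oxct1: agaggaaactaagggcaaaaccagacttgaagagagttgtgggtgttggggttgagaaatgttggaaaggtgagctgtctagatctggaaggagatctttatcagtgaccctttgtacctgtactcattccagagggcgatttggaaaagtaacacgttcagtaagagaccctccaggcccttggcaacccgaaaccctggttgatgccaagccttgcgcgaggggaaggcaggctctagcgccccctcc
Aacs: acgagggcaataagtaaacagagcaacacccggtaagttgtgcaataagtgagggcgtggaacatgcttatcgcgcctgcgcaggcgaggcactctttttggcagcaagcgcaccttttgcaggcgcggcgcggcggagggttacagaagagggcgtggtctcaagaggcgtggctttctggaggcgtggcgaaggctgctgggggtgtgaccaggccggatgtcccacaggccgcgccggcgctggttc
Bdh2: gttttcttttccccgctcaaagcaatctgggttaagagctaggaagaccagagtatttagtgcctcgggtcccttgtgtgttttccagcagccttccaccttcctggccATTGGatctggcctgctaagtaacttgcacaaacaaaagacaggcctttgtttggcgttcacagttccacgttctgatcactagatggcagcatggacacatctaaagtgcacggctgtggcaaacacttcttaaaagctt
The motifs searched on both strands were the core site of TCF/LEF factors, CTTTGAT, the nuclear receptor site, AGGTCA, the ERR element, TCAAGGTCA, which holds the receptor site, the box CCAAT, the Sp1 site, GGGCGG, the E-box, CACGTG, and the sterol response element, TCACNCCAC. The Bdh2 window held CCAAT on the opposite strand, 141 to 137 bases before the start, as did 33.8% of 32851 windows of the same length. None of the other motifs was in any of the 5 windows. Of all windows, 3.21% held the TCF/LEF core, 14% the receptor site, 0.387% the ERR element, 32.7% the Sp1 site, 6.02% the E-box and 1.05% the sterol element. GC content was 52% in the Oxct1 window and 62.4% in that of Aacs.

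Other genes that could share reads with the 5 were sought by sequence. The closest other coding genes to an Oxct1 transcript were Oxct2b and Oxct2a, at 69.5% and 69.4% identity over 1391 bases, and both had 0 reads. The antisense gene BC037032 matched Oxct1 at 100% over 468 bases and had 86 to 224 reads, against 5603 to 13559 for Oxct1. Gm15743, antisense to Bdh1, had at most 5 reads. Bdh1 also matched Ntrk3 at 92.8% over 69 bases and Mecomos at 91.4% over 70 bases, and Acat1 matched Malt1 at 85.2% over 115 bases. Whether reads were shared over these short stretches was not tested. The strand setting of the counting is not given in the sources used here.

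**Figure D4:**
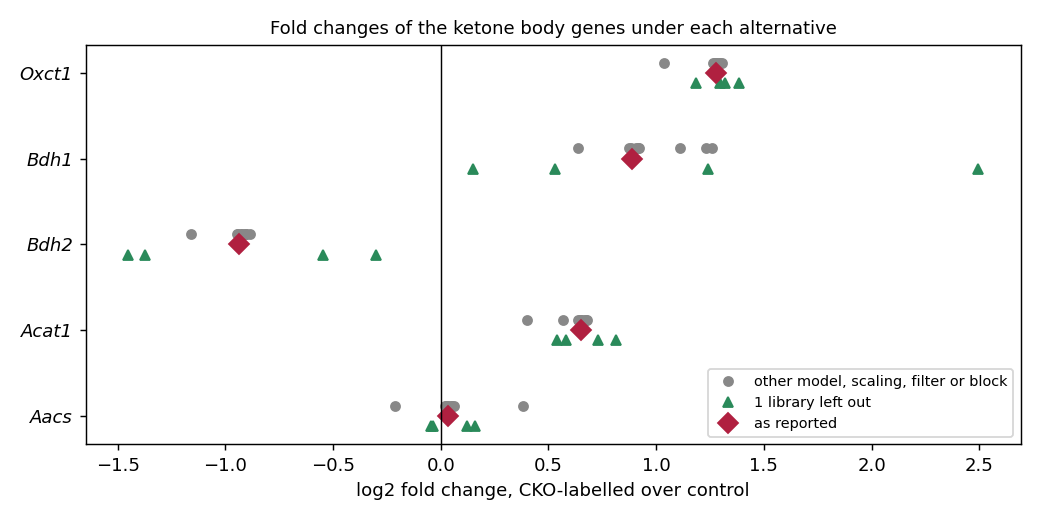
Log2 fold changes of the 5 genes as reported (red diamonds), with 1 library left out (green triangles) and under other models, scalings, filters and the block (grey points). Oxct1 stays between 1.04 and 1.38, while Bdh1 spans 0.15 to 2.49 and Aacs lies on both sides of 0.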

How the data were processed

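RNA from frozen ventricles was enriched for polyA and made into stranded Kapa libraries, per the labels' protocols. Per the submitters' processing notes, alignment to GRCm38 used STAR 2.5.3a and counting used HTSeq 0.6.1. Deposited counts are unscaled reads per gene. The authors' deposited table adds log2 fold changes of knockout over control and p-values, for which the notes name DESeq2 1.18. Its counts equalled the per-sample files, and 4 other per-sample columns were not used.

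Of 53465 genes, 53274 were matched to GENCODE vM21. The 5 HTSeq summary categories, such as reads outside genes (3.18% to 6.45%), stayed out of library sizes. Genes were kept by filterByExpr, scaled by TMM and compared over all 4 libraries with edgeR 4.0.16's quasi-likelihood test (R 4.3.3), adjusted by Benjamini-Hochberg across all genes tested and called at 0.05. DESeq2 1.42.0 and limma-voom (limma 3.58.1) were alternatives. The tests were tried on simulated counts drawn with edgeR's estimates of spread, where DESeq2 made more false calls than its threshold allows. How many true changes each test recovered is not given here, so that trial does not rank the tests. SE is the log2 fold change over the root of the F statistic. Named genes were the 5 members, the 6 other pathway genes with the smallest p and all others by level, Ctnnb1, the gene with the smallest p in each related list, and the 3 genes most like each member. Some genes of the pathway are not reported here. Members and lists were chosen with earlier results of these data known.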

Additional observations from a re-analysis of the deposited data

How the results depend on the processing

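Oxct1, Bdh1, Bdh2 and Acat1 kept their direction in all 13 alternatives planned. The exchange of replicate numbers given below was not among these. Oxct1 passed an adjusted p of 0.05 with DESeq2 (1.30) and with no filter on low counts (1.27), and Acat1 with DESeq2 (0.67). Aacs reversed with library totals alone (-0.21), without control 2 and without CKO-labelled 2 (its range with 1 library left out was -0.043 to 0.16), and Ctnnb1 reversed with library totals alone (-0.0086). Over these alternatives the adjusted p of Oxct1 ranged from 5.79e-08 to 0.615. Members called numbered 2 with DESeq2 and 1 with no filter, and other pathway genes 3 and 1. Over all genes 2 were called by edgeR, against 1758 by DESeq2, 554 with no filter, 0 by limma-voom (4035 at an unadjusted p under 0.05), 0 with nuclear protein-coding genes only and 0 to 30 with 1 library left out. Non-overlapping ratios numbered 5 to 10 with 1 library left out, since fewer libraries overlap less (10 without control 1, 8 without CKO-labelled 1). The Oxct1 level per kilobase was 74.4 with library totals in the CKO-labelled libraries and, with nuclear protein-coding genes only, 37.2 in the controls and 91.0 in the CKO-labelled libraries. Other causes were not tested.

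With the replicate number as a block 18 genes were called, Oxct1 had 1.28 (adjusted p = 0.0735, edgeR) and 0 members passed. Deviations of same-numbered libraries from their group means correlated at -0.142 across genes, and nothing in the labels pairs the samples. With the numbers of 1 group exchanged, an alternative chosen after seeing the data, 941 genes were called, with 1 member and 1 other pathway gene. Fits that leave out 1 library have 1 library in a group, which is assumed to vary like the other group.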
